A study of Mus musculus with 30 samples.

Results

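Genes of the major histocompatibility complex (MHC, called H2 in the mouse) and of antigen presentation were followed across mouse brain tumors and normal brain. The genes were all those whose symbol begins with H2-, together with B2m, Tap1, Tap2, Tapbp, Psmb8, Psmb9, Psmb10, Cd74, Ciita, Nlrc5 and Erap1. Measured by probe sets that name 1 gene, these came to 40 of 19938 genes, 29 of them H2 genes. The 30 Affymetrix Mouse Gene 1.0 ST arrays held total RNA of tumors that followed injection of Cre recombinase under the promoter of GFAP (an astrocyte gene), SYN1 (a neuron gene) or NES (a gene of neural progenitors), and of normal brain without a construct. The 7 groups were normal cortex (4 arrays), GFAP cortex tumors (4), SYN1 cortex tumors (4), normal hippocampus (4), GFAP hippocampus tumors (7), NES hippocampus tumors (4) and GFAP tumors of the subventricular zone, or SVZ (3). The labels call the tumors transduced glioblastomas and give promoter and brain region. The genes that Cre switched on or off, the vector, the strain with its H2 haplotype, the age of the mice, and whether arrays came from separate animals are not given in the sources used here. P-values therefore measure the spread between these arrays, which may be technical.

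Class I molecules, a heavy chain paired with B2m, show peptides from inside the cell to CD8 T cells. The proteasome cuts these peptides, Tap1 and Tap2 carry them into the endoplasmic reticulum, Erap1 trims them and Tapbp (tapasin) helps to load them. Class II molecules, pairs of an alpha and a beta chain guided by the invariant chain Cd74, show peptides from endosomes to CD4 T cells, and in the brain their best known source is microglia and other myeloid cells. Ciita and Nlrc5 switch on class II and class I genes, and interferons raise many of them.

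Presentation genes rose in every kind of tumor, led by the class II chains and their invariant chain, and 1 of the 40 genes was lower in 1 kind of tumor. A gene was called where limma gave a Benjamini-Hochberg adjusted p under 0.05 over all 19938 genes. Against normal cortex, 12 of the 40 genes (30%) were higher in GFAP cortex tumors and none lower, where 9% of all genes were higher and 18.8% lower. In SYN1 cortex tumors 18 (45%) were higher and none lower, against 18.2% and 20.5% of all genes. Against normal hippocampus, 15 (37.5%) were higher in GFAP hippocampus tumors and 1 was lower, against 16.1% and 25.2% of all genes. In NES hippocampus tumors 14 (35%) were higher and none lower, against 5.69% and 2.86% of all genes. No normal SVZ was among the samples, so GFAP SVZ tumors were set against the mean of both normal tissues. There 21 (52.5%) were higher and none lower, against 16.2% and 21.4% of all genes.

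The median log2 difference of the 40 genes was 0.27, 0.32, 0.20, 0.31 and 0.39 in these comparisons, in the same order, and that of all genes -0.10, -0.04, -0.08, -0.04 and 0. The cortex tumors share their normal arrays, as do the hippocampus tumors, and the SVZ comparison uses both sets, so the lists of calls are not independent of each other. In all 5 comparisons 11 genes were higher: the class II chains H2-Aa, H2-Ab1 and H2-Eb1, Cd74, B2m, the class I heavy chain H2-Q4, Tap1, Tap2, Tapbp, Erap1 and Psmb8. In none of them were 17 genes higher, among them Ciita, H2-DMa, Psmb10 and the 6 H2-M10 genes. The share of all genes higher in all 5 comparisons, or in none, was not counted, so these joint counts have no background beside them.

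Because the tissue was profiled in bulk, more cells of a type and more RNA per cell cannot be told apart. Among the tumors, GFAP cortex tumor 1 and GFAP hippocampus tumors 5, 6 and 7 stood apart from the rest of their groups in the range or the maximum of signals over all probe sets. The interquartile range of their signals was 2.021, 2.258, 2.542 and 2.38 log2, against 2.545 to 3.067 on the other arrays. This range alone does not set GFAP hippocampus tumor 6 (2.542) apart, since SVZ tumor 2 was at 2.545 and GFAP hippocampus tumor 1 at 2.57. GFAP hippocampus tumors 5 to 7 had maxima of 16.1, 15.7 and 15.8, against at most 15.2 elsewhere. Whether these arrays differ for technical reasons was not tested. Without these 4 arrays the counts of higher and lower genes were 12 and 1 in GFAP cortex, 18 and 1 in SYN1 cortex, 15 and 3 in GFAP hippocampus, 17 and 0 in NES hippocampus and 23 and 0 in GFAP SVZ tumors. The genes lower were H2-M10.2 in GFAP cortex, Psmb10 in SYN1 cortex, and H2-Ke6, H2-Ea and H2-M10.2 in GFAP hippocampus tumors. The share of all genes higher was then 12.9%, 23.1%, 26%, 11.2% and 21.8%, and the share lower 20.5%, 25.6%, 26.4%, 8.2% and 25.9%.

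**Figure D1:**
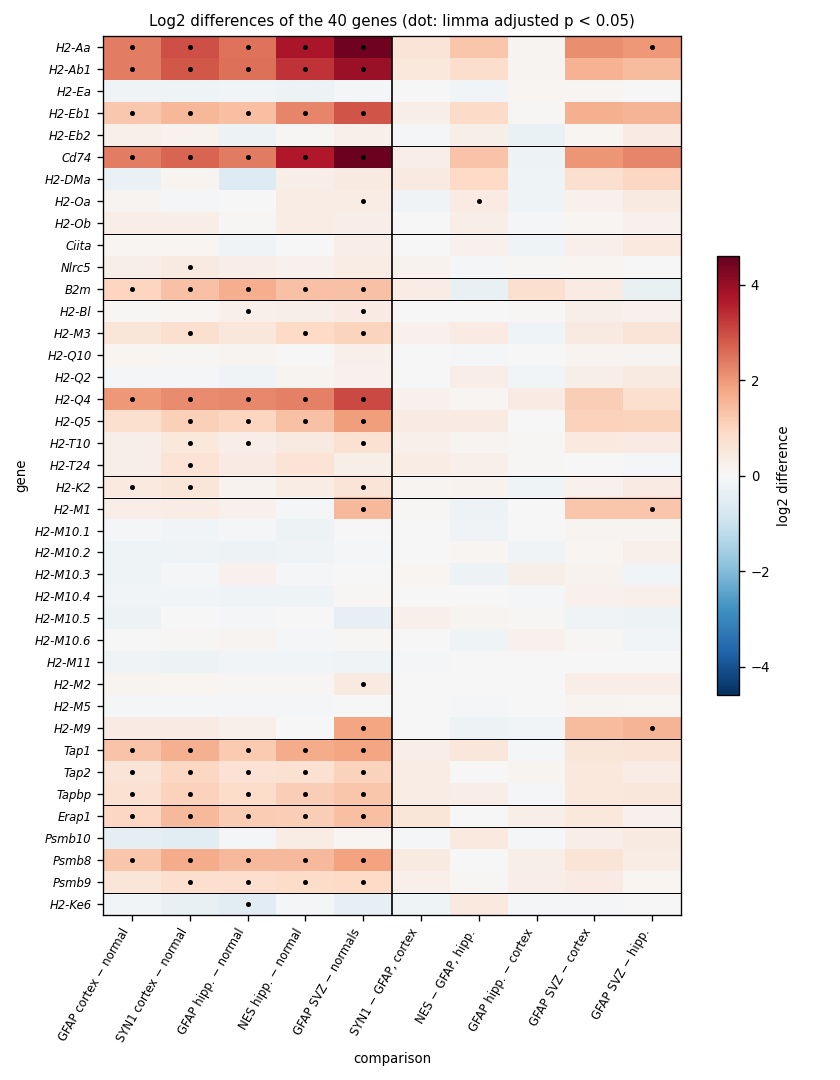
Log2 differences of the 40 genes (rows, grouped by role) in 5 tumor against normal comparisons (left of the vertical line) and 5 comparisons between tumor groups (right), with a dot where limma adjusted p was under 0.05. The reddest rows are H2-Aa, H2-Ab1, H2-Eb1, Cd74 and H2-Q4, and right of the line 4 squares carry a dot.

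H2-Aa, H2-Ab1 and Cd74 had the 3 largest log2 differences of the 40 genes in each of the 5 comparisons with normal tissue. H2-Aa (chr17:34282744-34287823 in GRCm38.p6) encodes the alpha chain of the A molecule, H2-Ab1 (chr17:34263227-34269418) its beta chain, and H2-Eb1 (chr17:34305867-34316674) the beta chain of the E molecule. Cd74 lies outside the MHC.

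The 150 bases before the starts of H2-Aa and H2-Eb1 are shown because these genes rose together in every tumor group and because class II promoters are known for an inverted CCAAT box, the site of NF-Y. The sequences are RefSeq's on GRCm38.p6, read 5′ to 3′ on the strand of the gene, from chr17:34287824-34287973 (minus strand) for H2-Aa and chr17:34305717-34305866 (plus strand) for H2-Eb1. Capitals mark the letters ATTGG on either strand.
H2-Aa: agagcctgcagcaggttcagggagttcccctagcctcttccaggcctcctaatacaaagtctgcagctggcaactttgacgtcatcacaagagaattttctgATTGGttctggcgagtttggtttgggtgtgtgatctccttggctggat
H2-Eb1: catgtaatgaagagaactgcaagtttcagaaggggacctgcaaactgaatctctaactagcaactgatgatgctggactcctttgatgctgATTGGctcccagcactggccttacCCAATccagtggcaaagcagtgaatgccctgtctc
In H2-Aa the match began 48 bases before the start, and H2-Eb1 held matches at 59 and 35 bases. Of the 40 genes, 29 were searched for these letters, with 31 windows. The others, Cd74 among them, had no promoter entry or were left out of the search, so the counts do not cover them. ATTGG on either strand lay within 250 bases before the start of 24 of the 29 genes, and in 33.8% of 32851 windows of that length over all genes. H2 genes arose by duplication and share sequence, so their windows do not count separately, and several with the letters, such as the H2-M10 genes, were called in no comparison. H2-Ab1 had no promoter entry.

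H2-Aa measured 6.37, 6.25, 6.10 and 6.63 log2 in normal cortex and 6.24, 6.53, 6.13 and 6.35 in normal hippocampus. It measured 8.77, 7.55, 8.71 and 9.68 in GFAP cortex tumors and 9.69, 9.07, 8.57 and 9.81 in SYN1 cortex tumors. All tumor arrays lay above all normal arrays. In hippocampus it ran from 7.66 over a median of 8.76 to 10.12 in the 7 GFAP tumors, and was 10.76, 9.85, 9.72 and 9.93 in NES tumors. In SVZ tumors it was 11.88, 10.49 and 10.05. Each NES tumor was above at least 6 of the 7 GFAP hippocampus tumors, and SVZ tumor 1 was the highest of all arrays.

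The log2 difference of H2-Aa from normal was 2.34 ± 0.47 (SE) in GFAP cortex tumors (adjusted p = 0.000722 by limma), 2.95 ± 0.47 in SYN1 cortex tumors (1.86e-05), 2.49 ± 0.41 in GFAP hippocampus tumors (4.06e-05), 3.75 ± 0.47 in NES hippocampus tumors (1.21e-05) and 4.48 ± 0.45 in SVZ tumors (2.65e-07). These are rises of 5.07, 7.71, 5.60, 13.5 and 22.4 fold.

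H2-Ab1 measured 6.86, 6.85, 6.37 and 7.0 log2 in normal cortex, 9.34, 8.24, 8.92 and 10.01 in GFAP cortex tumors and 9.89, 9.45, 9.20 and 9.94 in SYN1 cortex tumors. In hippocampus, H2-Ab1 measured 6.81, 7.05, 6.50 and 6.59 in normal tissue, a median of 9.64 (8.45 to 10.17) in GFAP tumors and 10.69, 9.70, 9.93 and 10 in NES tumors, and in the SVZ tumors 11.65, 10.50 and 10.02. The 8 normal arrays reached 7.05 at most, and the lowest tumor was at 8.24. H2-Ab1 thus rose with H2-Aa, by 2.36, 2.85, 2.53, 3.34 and 3.97 log2 in the same order.

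H2-Eb1 measured 7.27, 7.26, 7.08 and 7.50 log2 in normal cortex, 9.10, 7.75, 8.35 and 8.90 in GFAP cortex tumors and 9.32, 8.61, 8.23 and 9.04 in SYN1 cortex tumors. In hippocampus, H2-Eb1 measured 7.48, 7.50, 7.04 and 6.85 in normal tissue, a median of 8.56 (7.83 to 9.65) in GFAP tumors and 9.96, 9.34, 9.38 and 9.22 in NES tumors, and in the SVZ tumors 11.40, 9.91 and 9.17. The groups did not overlap, and GFAP cortex tumor 2 came closest to normal. H2-Eb1 rose by 1.25, 1.52, 1.38, 2.26 and 2.91 log2, or 2.37 to 7.53 fold. In GFAP cortex tumors its call was close to the threshold: adjusted p was 0.0222 with all arrays and 0.0505 (log2 difference 1.05) by limma without the 4 arrays that stood apart.

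Cd74 guards the peptide groove of new class II molecules. It measured 6.80, 6.62, 6.06 and 6.6 in normal cortex, 9.04, 7.80, 9.06 and 9.60 in GFAP cortex tumors, and 9.31, 9.13, 8.60 and 9.70 in SYN1 cortex tumors. It measured 6.39, 6.50, 5.91 and 6.27 in normal hippocampus, a median of 8.26 (6.96 to 10.61) in GFAP hippocampus tumors, 10.59, 9.46, 10.04 and 9.75 in NES tumors, and 11.77, 10.59 and 10.35 in SVZ tumors. Again no tumor overlapped the normal arrays, and the GFAP hippocampus tumors were the most spread, with an SD of 1.40 against 0.48 in NES tumors. The log2 differences were 2.36 ± 0.57 (SE), 2.67 ± 0.57, 2.39 ± 0.50, 3.69 ± 0.57 and 4.51 ± 0.54, or 5.12, 6.36, 5.23, 12.9 and 22.8 fold.

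**Figure D2:**
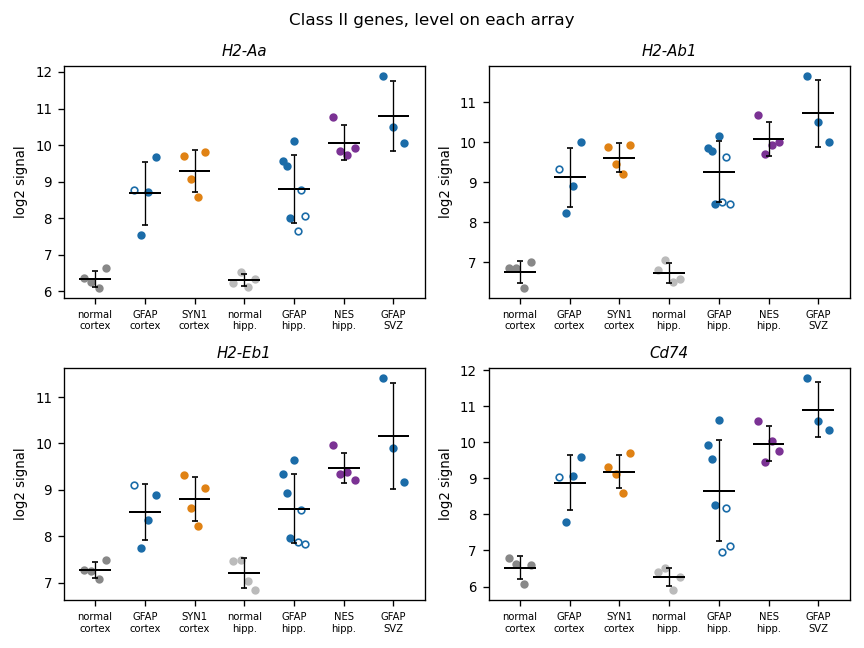
Level (log2 signal, vertical axis) of H2-Aa, H2-Ab1, H2-Eb1 and Cd74 on each array, by group, with the mean (line) and SD (bar). Open points are the 4 tumor arrays that stood apart; all tumor points lie above the normal points, and SVZ tumor 1 is the highest point in each panel.

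Class II levels varied widely among GFAP hippocampus tumors, and the split did not follow the arrays that stood apart for every gene. Tumors 5, 6 and 7 measured 6.96, 8.17 and 7.13 for Cd74, while tumors 1 to 4 measured 9.93, 9.54, 8.26 and 10.61. H2-Aa was 7.66, 8.76 and 8.05 in tumors 5 to 7 and 9.57, 9.42, 8.0 and 10.12 in tumors 1 to 4. Tumor 3, which did not stand apart, was low for all 3 chains: it was the lowest of the 7 for H2-Ab1 (8.45), where tumor 6 was the median (9.64), and below tumor 6 for H2-Eb1 (7.97 and 8.56). The summed level of 16 microglia and macrophage markers was 14.03, 14.53 and 13.89 log2 in tumors 5 to 7 and 14.50, 15.05, 14.50 and 14.54 in tumors 1 to 4. The brightest markers weigh most in this sum, and the markers went both ways. C1qb was 10.87, 11.26 and 10.81 in tumors 5 to 7 and 12.37 to 12.78 in tumors 1 to 4. Csf1r was 11.17, 11.11 and 10.42 against 9.96 to 11.01, and C1qa 11.12, 11.96 and 11.27 against 10.80 to 11.34. The part of these cells in the class II difference was not tested. B2m did not share this order: tumors 7 and 6 had the highest levels of all arrays, 14.04 and 13.84, and tumor 5 the lowest of its group, 12.80. Without the 4 arrays that stood apart, the log2 difference of GFAP hippocampus tumors from normal was 3.32 for Cd74, 2.97 for H2-Aa, 2.83 for H2-Ab1 and 1.76 for H2-Eb1.

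The other class II genes did not follow. H2-DMa, a subunit of the molecule that exchanges class II peptides, differed from normal by -0.29, 0.14, -0.60, 0.30 and 0.40 log2, none called. In the 4 arrays that stood apart it measured 7.43 to 7.83, below each of the 18 other tumor arrays (8.22 to 9.89). The share of all genes that separate these arrays in this way was not counted. H2-Oa, a subunit of the inhibitor of that exchange, was called higher in SVZ tumors (0.34, adjusted p = 0.0324 by limma), with arrays that overlapped normal ones, and in no other comparison with normal. H2-Ob, the partner of H2-Oa, and H2-Eb2 were called in no comparison with normal, and neither was H2-Ea, which RefSeq lists as a transcribed pseudogene. H2-Oa, H2-Ob, H2-Eb2 and H2-Ea were dim, with means from 6.025 to 6.814 log2 over the 30 arrays, where differences are compressed.

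Ciita, the master switch of class II transcription, differed from normal by 0.08, 0.09, -0.17, 0.02 and 0.31 log2, none called. The mean of Ciita over the 30 arrays was 6.625 log2, low on the scale, where differences are compressed and a change could be missed. It measured 6.55, 6.63, 6.62 and 6.54 in normal cortex, 6.97, 6.44, 6.62 and 6.63 in GFAP cortex tumors and 6.44, 6.70, 6.68 and 6.87 in SYN1 cortex tumors. It measured 6.62, 6.81, 6.55 and 6.52 in normal hippocampus, a median of 6.43 (6.28 to 6.71) in GFAP hippocampus tumors and 6.76, 6.49, 6.55 and 6.78 in NES tumors. Tumor and normal arrays overlapped in all these groups. In SVZ tumors Ciita measured 7.31, 6.77 and 6.68, the first being the array with the highest class II level. Without the 4 arrays that stood apart, the SVZ difference of 0.31 was called (adjusted p = 0.0355 by limma, against 0.0608 with all arrays).

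B2m, the light chain of every class I molecule (chr2:122147687-122153082), rose in all tumor groups. The 150 bases before its start (chr2:122147537-122147686, plus strand, RefSeq on GRCm38.p6) are shown because B2m was the 1 gene of the 29 with the core of an interferon-stimulated response element. Capitals mark that core (TTTCNNTTTC, found on the opposite strand, 139 bases before the start) and ATTGG (53 bases before the start), which do not overlap.
B2m: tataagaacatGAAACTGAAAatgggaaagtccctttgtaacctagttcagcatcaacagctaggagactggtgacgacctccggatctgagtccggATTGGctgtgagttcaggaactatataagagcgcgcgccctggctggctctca
The core lay in 2.98% of all windows of 250 bases, and 1 of the 31 windows of the 29 genes is near that share. The letters TTCNNNGAA, also searched for, lay in 3 of the 31 windows (H2-M3, H2-M11 and Psmb8) and in 7.02% of all windows.

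B2m measured 11.73, 11.99, 11.27 and 11.88 log2 in normal cortex, 12.62, 12.58, 12.84 and 12.76 in GFAP cortex tumors and 13.46, 12.80, 13 and 12.95 in SYN1 cortex tumors. In hippocampus it measured 11.94, 11.15, 12.10 and 11.76 in normal tissue, a median of 13.43 (12.80 to 14.04) in GFAP tumors and 13.49, 13.10, 13.02 and 12.69 in NES tumors. SVZ tumors were at 12.99, 13.25 and 12.99. No tumor overlapped normal tissue. The log2 differences were 0.98 ± 0.23 (SE), 1.34 ± 0.23, 1.68 ± 0.20, 1.34 ± 0.23 and 1.35 ± 0.22, rises of 1.98 to 3.21 fold, with limma adjusted p from 8.27e-07 (GFAP hippocampus) to 0.00257 (GFAP cortex).

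Class I heavy chains of the Q and T regions rose in part, and most of the M region did not. The probe sets for the classical heavy chains H2-K1 and H2-D1 name several genes, so these have no value of their own here. Of 8 non-classical heavy chain genes (H2-Q2, H2-Q4, H2-Q5, H2-Q10, H2-T10, H2-T24, H2-Bl and H2-M3), 1, 5, 4, 3 and 5 were higher in the 5 comparisons and none lower. Of all genes 9%, 18.2%, 16.1%, 5.69% and 16.2% were higher, and the 1 of 8 in GFAP cortex tumors was near that share. H2-Q5, H2-T10 and H2-Bl are transcribed pseudogenes in RefSeq, and near-identical copies can share probe signal, so the gene behind each of these values is uncertain.

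H2-Q4 (chr17:35379617-35384674) rose in all 5 comparisons. It measured 5.94, 6.38, 5.92 and 5.88 log2 in normal cortex, 7.71, 7.24, 8.98 and 8.15 in GFAP cortex tumors and 8.41, 7.92, 7.30 and 9.23 in SYN1 cortex tumors. It measured 6.66, 5.90, 6.11 and 6.04 in normal hippocampus, a median of 8.27 (7.88 to 9.53) in GFAP hippocampus tumors, 9.46, 8.31, 8.17 and 8.05 in NES tumors and 9.28, 8.11 and 10.04 in SVZ tumors. Every tumor was above every normal array, by 2.0 ± 0.42 (SE), 2.19 ± 0.42, 2.22 ± 0.38, 2.32 ± 0.42 and 3.04 ± 0.41 log2 on average (3.99 to 8.22 fold).

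H2-Q5 measured 7.43, 7.49, 7.70 and 7.38 log2 in normal cortex, 8.03, 7.50, 8.92 and 8.47 in GFAP cortex tumors and 8.69, 8.12, 8.08 and 9.55 in SYN1 cortex tumors. In hippocampus, H2-Q5 measured 7.20, 7.65, 7.06 and 7.14 in normal tissue, a median of 8.25 (7.33 to 8.99) in GFAP tumors and 9.64, 8.55, 8.36 and 7.94 in NES tumors, and in the SVZ tumors 9.44, 8.56 and 9.88. H2-Q5 rose by 1.11, 0.99, 1.36 and 1.91 log2 in SYN1 cortex, GFAP hippocampus, NES hippocampus and SVZ tumors; its difference of 0.73 in GFAP cortex tumors was not called. Its arrays overlapped normal hippocampus in GFAP hippocampus tumors, where tumors 5 and 7 were at 7.33 and 7.62.

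H2-M3 measured 7.0, 6.99, 6.95 and 6.95 log2 in normal cortex, 7.42, 7.29, 7.78 and 7.57 in GFAP cortex tumors and 7.93, 7.39, 7.40 and 8.15 in SYN1 cortex tumors. In hippocampus, H2-M3 measured 6.78, 6.99, 6.68 and 6.73 in normal tissue, a median of 7.41 (6.81 to 8.0) in GFAP tumors and 8.29, 7.76, 7.46 and 7.32 in NES tumors, and in the SVZ tumors 7.77, 7.59 and 8.39. H2-M3, which presents formylated peptides, rose by 0.74, 0.91 and 1.03 log2 in SYN1 cortex, NES hippocampus and SVZ tumors. Among GFAP hippocampus tumors, H2-M3 was at 7.41 or more in tumors 1 to 4 and at 6.84, 6.94 and 6.81 in tumors 5 to 7, within the range of normal hippocampus. Its difference there, 0.53 log2, was not called with all arrays and was 0.87 (adjusted p = 0.00114 by limma) without the 4 arrays that stood apart.

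Smaller rises were called for 4 dim genes. H2-T10 measured 5.93, 6.43, 6.17 and 6.29 log2 in normal cortex, 6.48, 6.38, 6.50 and 6.58 in GFAP cortex tumors and 6.63, 6.67, 6.61 and 6.89 in SYN1 cortex tumors. In hippocampus, H2-T10 measured 6.31, 6.52, 6.13 and 5.92 in normal tissue, a median of 6.51 (6.35 to 6.81) in GFAP tumors and 6.67, 6.77, 6.57 and 6.56 in NES tumors, and in the SVZ tumors 6.80, 6.73 and 7.24. H2-T10 rose by 0.49, 0.31 and 0.71 log2 in SYN1 cortex, GFAP hippocampus and SVZ tumors, with overlap in GFAP hippocampus tumors. H2-T24 measured 6.75, 7.04, 6.77 and 6.88 log2 in normal cortex, 6.84, 7.02, 7.56 and 7.11 in GFAP cortex tumors and 7.84, 7.07, 7.13 and 7.88 in SYN1 cortex tumors. In hippocampus, H2-T24 measured 6.64, 6.88, 6.87 and 6.88 in normal tissue, a median of 7.22 (6.92 to 7.45) in GFAP tumors and 7.72, 7.80, 7.19 and 7.03 in NES tumors, and in the SVZ tumors 7.14, 7.57 and 6.62. H2-T24 rose by 0.62 log2 in SYN1 cortex tumors, whose lowest array was just above normal cortex, and SVZ tumor 3 was below every normal array.

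H2-Bl measured 6.16, 6.27, 6.26 and 6.13 log2 in normal cortex, 6.39, 6.15, 6.32 and 6.18 in GFAP cortex tumors and 6.08, 6.27, 6.45 and 6.37 in SYN1 cortex tumors. In hippocampus, H2-Bl measured 5.87, 6.15, 6.15 and 6.16 in normal tissue, a median of 6.31 (6.17 to 6.47) in GFAP tumors and 6.49, 6.21, 6.25 and 6.4 in NES tumors, and in the SVZ tumors 6.56, 6.4 and 6.61. H2-Bl rose by 0.25 and 0.38 log2 in GFAP hippocampus and SVZ tumors, and both rises were smaller than the distance between the lowest and the highest normal array (5.87 and 6.27). H2-K2 measured 5.65, 5.98, 5.75 and 5.92 log2 in normal cortex, 6.22, 6.52, 6.30 and 6.07 in GFAP cortex tumors and 6.26, 6.32, 6.50 and 6.52 in SYN1 cortex tumors. In hippocampus, H2-K2 measured 5.76, 6.10, 5.96 and 5.92 in normal tissue, a median of 6.07 (5.87 to 6.41) in GFAP tumors and 6.43, 6.12, 6.28 and 6.22 in NES tumors, and in the SVZ tumors 6.20, 6.31 and 6.94. H2-K2, a pseudogene beside the classical class I genes, rose by 0.45, 0.57 and 0.60 log2 in GFAP cortex, SYN1 cortex and SVZ tumors. These 4 genes lay low on the scale, with a mean from 6.16 to 7.15 log2 over the 30 arrays, where differences are compressed. The call of H2-Bl in GFAP hippocampus tumors was lost without the 4 arrays that stood apart (0.21, adjusted p = 0.0708 by limma). H2-Q2 and H2-Q10 were called in no comparison with normal.

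Of the other 11 M region genes, none was called in the 4 comparisons with normal cortex or hippocampus alone, and 3 were higher in SVZ tumors: H2-M1, H2-M2 and H2-M9. In that comparison 16.2% of all genes were higher. H2-M1 measured 6.23, 7.90 and 6.89 log2 in SVZ tumors against 5.24 to 5.71 over the 8 normal arrays, a difference of 1.5 ± 0.26 (SE; adjusted p = 5e-05 by limma). H2-M9 measured 7.71, 8.66 and 9.06 against 6.51 to 6.93, a difference of 1.81 ± 0.28 (adjusted p = 1.81e-05 by limma). For both genes SVZ tumor 1, the highest for class II, was the lowest of its group. In the other tumors H2-M1 reached 6.35 (SYN1 cortex tumor 3) and H2-M9 7.70 (the same tumor). The 6 H2-M10 genes, whose proteins are best known from the vomeronasal organ, differed from normal by -0.36 to 0.21 log2, with no call.

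The 8 probe sets that name several H2 genes, and so stand for no single gene, were counted apart. In each of the 5 comparisons 6 of them were higher and none lower, with medians of 1.21, 1.73, 1.66, 1.73 and 1.92 log2. Among the 13767 probe sets with several symbols or none, 2.44%, 8.27%, 10.4%, 0.915% and 6.6% were higher.

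Of the genes that supply class I with peptides, Tap1, Tap2, Tapbp, Erap1 and Psmb8 were higher in 5 of 5 comparisons, Psmb9 in 4 and Psmb10 in none. Tap1, Tap2, Psmb8 and Psmb9 lie side by side within the class II region of chromosome 17. Psmb9 and Tap1 start 225 bases apart and are read in opposite directions, so the stretch between them (chr17:34187331-34187555, plus strand, RefSeq on GRCm38.p6), shown here, is upstream of both. Capitals mark its 1 match to ATTGG, on the minus strand, and it held no match to TTTCNNTTTC or TTCNNNGAA. A search for fixed letters cannot show that no response element lies there.
Psmb9 to Tap1: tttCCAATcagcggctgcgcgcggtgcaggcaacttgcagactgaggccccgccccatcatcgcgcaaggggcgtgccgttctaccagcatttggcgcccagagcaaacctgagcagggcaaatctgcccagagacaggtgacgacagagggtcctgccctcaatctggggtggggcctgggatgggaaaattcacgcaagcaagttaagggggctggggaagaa
Whether Tap1 and Psmb9 rose by different amounts was not tested.

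Tap1 (chr17:34187556-34197225), a subunit of the peptide transporter, measured 7.09, 7.0, 6.97 and 6.93 log2 in normal cortex, 8.11, 7.82, 8.92 and 8.41 in GFAP cortex tumors and 8.81, 8.42, 8.11 and 9.15 in SYN1 cortex tumors. In hippocampus it measured 7.20, 7.04, 7.07 and 6.92 in normal tissue, a median of 8.26 (7.69 to 8.59) in GFAP tumors and 9.47, 9.03, 8.33 and 8.26 in NES tumors. SVZ tumors were at 8.89, 8.32 and 9.35. The normal arrays kept between 6.92 and 7.20 and every tumor lay above them, and the differences were 1.32 ± 0.27 (SE), 1.62 ± 0.27, 1.19 ± 0.24, 1.71 ± 0.27 and 1.82 ± 0.26 log2.

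Tap2 measured 7.36, 7.49, 7.47 and 7.63 log2 in normal cortex, 8.03, 7.74, 8.24 and 8.37 in GFAP cortex tumors and 8.64, 8.22, 8.32 and 8.52 in SYN1 cortex tumors. In hippocampus, Tap2 measured 7.63, 7.66, 7.46 and 7.49 in normal tissue, a median of 8.18 (7.87 to 8.83) in GFAP tumors and 8.65, 8.37, 8.18 and 7.86 in NES tumors, and in the SVZ tumors 8.67, 8.16 and 8.92. The lowest tumor, GFAP cortex tumor 2, was just above the highest normal array. Tap2, the other subunit, rose by 0.61, 0.94, 0.67, 0.71 and 1.06 log2.

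Tapbp measured 9.02, 9.11, 8.89 and 8.95 log2 in normal cortex, 9.24, 9.25, 10.42 and 9.91 in GFAP cortex tumors and 10.10, 9.86, 9.92 and 10.32 in SYN1 cortex tumors. In hippocampus, Tapbp measured 8.95, 8.90, 8.76 and 8.71 in normal tissue, a median of 9.71 (9.18 to 10.03) in GFAP tumors and 10.48, 10.18, 9.70 and 9.49 in NES tumors, and in the SVZ tumors 10.03, 10.01 and 10.56. Tapbp, outside that cluster at chr17:33919478-33929290, rose by 0.71, 1.06, 0.83, 1.13 and 1.29 log2. Its lowest tumor, GFAP hippocampus tumor 7, measured 9.18 and its highest normal array, normal cortex 2, 9.11.

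Erap1 measured 6.75, 6.78, 6.74 and 6.53 log2 in normal cortex, 7.48, 7.43, 7.96 and 7.77 in GFAP cortex tumors and 8.34, 8.17, 7.94 and 8.34 in SYN1 cortex tumors. In hippocampus, Erap1 measured 6.88, 6.72, 6.74 and 6.71 in normal tissue, a median of 7.97 (7.59 to 8.15) in GFAP tumors and 8.58, 8.15, 7.53 and 7.33 in NES tumors, and in the SVZ tumors 8.22, 7.64 and 8.51. Erap1, the trimming peptidase on chromosome 13, rose by 0.96, 1.5, 1.15, 1.14 and 1.39 log2, with no overlap of tumor and normal arrays. Within the NES tumors Erap1, Tapbp, Tap1 and Psmb8 were all higher in tumors 1 and 2 than in 3 and 4.

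The 3 inducible proteasome subunits differed. Psmb8 measured 6.41, 6.42, 6.58 and 6.42 log2 in normal cortex, 7.61, 7.33, 8.13 and 7.89 in GFAP cortex tumors and 8.45, 7.87, 7.71 and 8.64 in SYN1 cortex tumors. In hippocampus, Psmb8 measured 6.55, 6.49, 6.6 and 6.49 in normal tissue, a median of 7.97 (7.78 to 8.47) in GFAP tumors and 8.75, 8.39, 7.56 and 7.41 in NES tumors, and in the SVZ tumors 8.49, 7.72 and 8.79. Psmb8 rose by 1.28 ± 0.25 (SE), 1.71 ± 0.25, 1.48 ± 0.23, 1.5 ± 0.25 and 1.84 ± 0.24 log2, or 2.43 to 3.58 fold. The 8 normal arrays lay close together and well below all tumors.

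Psmb9 measured 8.0, 7.63, 7.45 and 7.77 log2 in normal cortex, 8.17, 7.97, 8.59 and 8.27 in GFAP cortex tumors and 8.91, 8.18, 7.92 and 8.92 in SYN1 cortex tumors. In hippocampus, Psmb9 measured 7.70, 7.89, 7.69 and 7.77 in normal tissue, a median of 8.46 (8.30 to 9.29) in GFAP tumors and 8.98, 8.91, 8.34 and 8.17 in NES tumors, and in the SVZ tumors 9.04, 8.40 and 8.47. Psmb9 rose by 0.77, 0.78, 0.84 and 0.90 log2 in SYN1 cortex, GFAP hippocampus, NES hippocampus and SVZ tumors; in GFAP cortex tumors its 0.54 was not called, and SYN1 cortex tumor 3 fell within the range of normal cortex.

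Psmb10, which lies on chromosome 8 away from the MHC, was called in no comparison with normal. Its differences were -0.41, -0.50, -0.10, 0.34 and 0.10 log2. It measured 9.67, 9.57, 9.45 and 9.52 in normal cortex, 8.38, 9.43, 9.57 and 9.19 in GFAP cortex tumors and 9.43, 8.84, 8.60 and 9.32 in SYN1 cortex tumors. In hippocampus it measured 9.15, 9.05, 9.13 and 9.26 in normal tissue, 9.24, 9.47, 9.37, 9.36, 8.61, 8.83 and 8.49 in GFAP tumors 1 to 7 and 9.86, 9.82, 9.16 and 9.11 in NES tumors. The 4 arrays that stood apart were thus low for Psmb10, at 8.38 to 8.83. All SYN1 cortex tumors lay below all normal cortex arrays, and without the 4 arrays their difference was called lower (adjusted p = 0.0183 by limma, against 0.109 with all arrays).

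**Figure D3:**
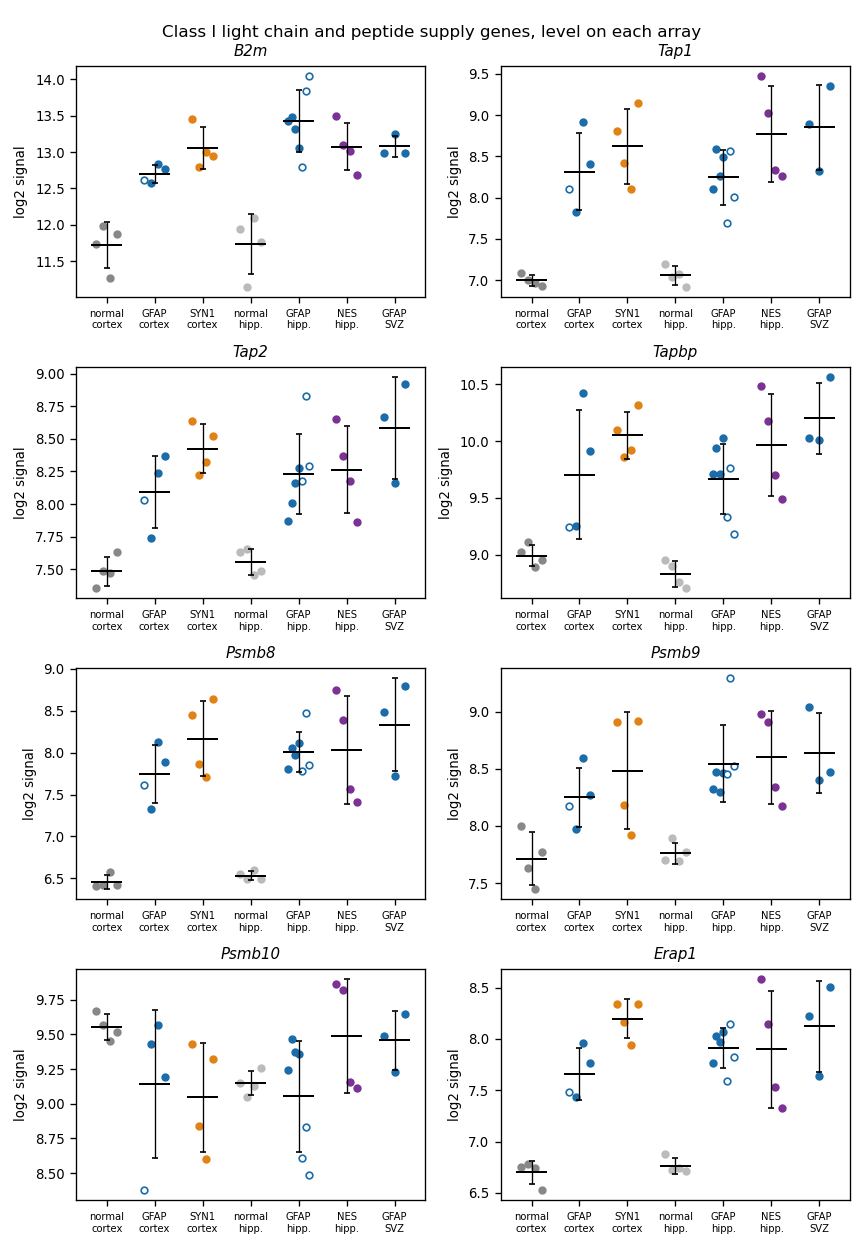
Level (log2 signal, vertical axis) of B2m, Tap1, Tap2, Tapbp, Psmb8, Psmb9, Psmb10 and Erap1 on each array, by group, with mean (line) and SD (bar); open points are the 4 tumor arrays that stood apart. In the panels of B2m, Tap1, Tap2, Tapbp, Psmb8 and Erap1 no tumor point reaches the normal points; in that of Psmb10 the open points lie between 8.38 and 8.83, below the normal arrays.

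Nlrc5, the switch of class I genes on chromosome 8, was measured by 19 probe sets, and the answer depended on which was read. The brightest was used for Nlrc5, as for all genes. Nlrc5 measured 9.52, 9.44, 9.32 and 9.26 log2 in normal cortex, 9.81, 9.35, 9.81 and 9.60 in GFAP cortex tumors and 9.89, 9.68, 9.68 and 10.02 in SYN1 cortex tumors. In hippocampus, Nlrc5 measured 9.19, 9.41, 9.44 and 9.63 in normal tissue, a median of 9.73 (9.48 to 10.09) in GFAP tumors and 9.97, 9.65, 9.41 and 9.42 in NES tumors, and in the SVZ tumors 10, 9.62 and 9.55. Tumor and normal arrays overlapped in all groups but SYN1 cortex tumors. This probe set rose in SYN1 cortex tumors (0.43 ± 0.15, SE; adjusted p = 0.0229 by limma) and differed by 0.26, 0.30, 0.20 and 0.33 log2, uncalled, in the other groups. Over the 19 probe sets the median difference was 0.56, 0.83, 0.55, 0.72 and 0.79 log2, and 9, 17, 9, 8 and 14 of them were higher. Those counts come from a fit of all 21789 probe sets with 1 symbol, of which 9.27%, 18.6%, 16.9%, 5.86% and 16.7% were higher. In GFAP hippocampus tumors 1 of the 19 was lower. The largest differences, 1.89, 2.34, 1.41, 1.80 and 2.16, came from probe sets dimmer than the one used.

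**Figure D4:**
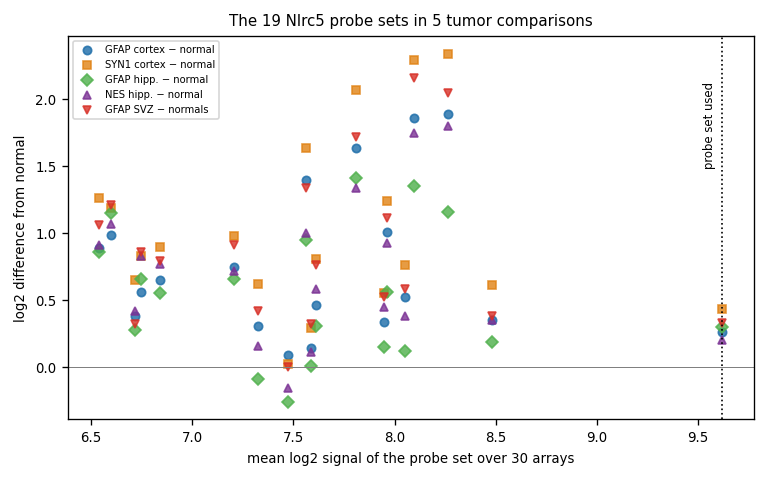
Log2 difference from normal (vertical axis) of the 19 Nlrc5 probe sets in 5 tumor comparisons (symbols) against the mean log2 signal of the probe set over 30 arrays (horizontal axis). The brightest probe set, marked by the dotted line, has differences of 0.20 to 0.43, while dimmer ones reach 2.34.

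H2-Ke6 carries an H2 name for its place in the MHC but encodes a hydroxysteroid dehydrogenase. It was the 1 gene of the 40 called lower than normal, in GFAP hippocampus tumors (-0.53 ± 0.17, SE; adjusted p = 0.0142 by limma). H2-Ke6 measured 8.30, 8.14, 8.11 and 8.15 log2 in normal cortex, 7.42, 8.47, 8.09 and 8.15 in GFAP cortex tumors and 8.21, 7.55, 7.53 and 8.01 in SYN1 cortex tumors. In hippocampus, H2-Ke6 measured 8.55, 8.34, 8.48 and 8.53 in normal tissue, a median of 7.97 (7.64 to 8.25) in GFAP tumors and 8.09, 8.22, 8.94 and 8.26 in NES tumors, and in the SVZ tumors 7.97, 7.80 and 8.14. The GFAP hippocampus tumors did not overlap normal hippocampus, while the cortex tumors overlapped normal cortex.

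The genes around this machinery moved in part. For the lists here and below, 9%, 18.2%, 16.1%, 5.69% and 16.2% of all genes were higher in the 5 comparisons. The shares of all genes lower were 18.8%, 20.5%, 25.2%, 2.86% and 21.4%. Of 6 cathepsins and other enzymes of class II processing 5, 5, 6, 6 and 6 were higher in the 5 comparisons, among them Ctss, which cuts the invariant chain (1.93, 1.97, 3.18, 2.24 and 2.32 log2), and Ifi30, a thiol reductase of endosomes (3.12, 3.68, 3.47, 3.13 and 3.45). In GFAP hippocampus tumors Ctss was at 12.96, 13.52 and 12.89 in tumors 5 to 7, which stood apart, and at 11.01 to 11.78 in tumors 1 to 4. Of the 3 constitutive proteasome subunits that Psmb8, Psmb9 and Psmb10 replace, 0, 1, 2, 0 and 2 were higher, with Psmb7 at 0.02, 0.65, 0.60, 0.19 and 0.33. Psme1 and Psme2, of the proteasome cap PA28, were both higher in all groups but GFAP cortex tumors, and Psme3 was called in none. Of 5 chaperones of peptide loading 0, 2, 2, 0 and 3 were higher. Calr and Canx, which hold the class I chain during folding, were called in no group.

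Of 6 RFX and NF-Y factors, which act with Ciita on class II promoters, at most 1 was higher in a comparison (Nfya, 0.91 log2 in SYN1 cortex tumors). Rfx5 was called in no comparison, Rfxap was lower in SYN1 cortex (-0.49) and SVZ tumors (-0.62), and Nfyb in GFAP hippocampus (-0.50) and SVZ tumors (-0.51). Of 9 interferon gamma signalling genes 3, 4, 3, 4 and 4 were higher, with Irf1 at 1.18, 1.77, 1.38, 1.2 and 1.84 log2. Ifng itself was called in none (-0.10, 0.06, -0.01, 0.08 and 0.28). Of 13 interferon induced genes 10, 12, 11, 12 and 12 were higher, with Cxcl10 at 2.5, 3.47, 2.33, 3.95 and 3.53. Of Cd1d1 and Mr1, which present lipids and metabolites, 2, 2, 1, 1 and 2 were higher, and of the 3 costimulators Cd40, Cd80 and Cd86 3, 3, 3, 1 and 3.

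Markers of microglia, macrophages and monocytes were higher in the same comparisons as the class II genes, and their part in the result was not tested. Of 16 microglia and macrophage markers 11, 11, 13, 12 and 12 were higher in the 5 comparisons. Their summed level was 12.70 to 13.08 log2 over the normal arrays, 13.44 to 14.91 in GFAP cortex, 13.49 to 14.80 in SYN1 cortex, 13.89 to 15.05 in GFAP hippocampus, 13.92 to 14.95 in NES hippocampus and 14.40 to 14.77 in SVZ tumors. In GFAP cortex tumors 1 to 4 this level was 13.44, 14.04, 14.91 and 14.49. The summed class II chains were at 10.83, 9.70, 10.40 and 11.27 in the same tumors. Tumor 1 was among the arrays that stood apart. Between SVZ and GFAP cortex tumors no gene of either list was called. The median difference there was 1.6 log2 (0.08 to 2.13) for the 5 class II chains and 0.2 (-0.51 to 0.98) for the 16 markers. Whether the 2 lists differed was not tested. The resident microglia markers P2ry12, Tmem119 and Cx3cr1 were called in none. Of 6 monocyte markers 5, 6, 4, 3 and 5 were higher, with Lyz2 at 3.64, 3.77, 4.12, 3.46 and 4.25.

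Of 9 dendritic cell markers 1, 1, 1, 3 and 3 were higher and 2, 3, 2, 0 and 2 lower; the summed level was 10.15 to 10.31 over normal arrays, 9.84 to 10.72 over GFAP and SYN1 tumors of cortex and hippocampus, 10.50 to 10.87 in NES tumors and 10.17 to 10.50 in SVZ tumors. Flt3 was lower in all groups but NES tumors, and Xcr1 was called in none. Itgax had the largest rise of the 9 in each comparison, at 1.34, 2.4, 1.02, 1.63 and 1.63 log2. Of 5 B cell markers 0, 1, 0, 0 and 1 were higher, all from Cd79b, and Cd79a, Ms4a1 and Pax5 were called in none. Of 10 T and NK cell markers 0, 0, 0, 1 and 5 were higher. The summed T and NK level was 9.39 to 9.61 over the normal arrays, 9.35 to 9.85 in GFAP and SYN1 tumors of cortex and hippocampus, 9.65 to 9.94 in NES tumors and 10.44, 9.77 and 9.91 in SVZ tumors. The first of these, SVZ tumor 1, was also the highest for class II. Log2 signal includes background, so these levels do not show absence. Of 8 neuron markers 6, 7, 6, 0 and 7 were lower; their summed level was 15.42 to 15.89 over the normal arrays, 14.28 to 15.30 in NES tumors and 11.92 to 14.84 over the other tumors. Of 4 oligodendrocyte markers 4, 4, 2, 0 and 4 were lower. Of 6 endothelial markers 1, 5, 5, 0 and 5 were higher, with a summed level of 10.74 to 11 over the normal arrays and 10.94 to 12.08 over the tumors. The part of these cell types in the results was not tested.

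Between tumor groups few of the 40 genes were called. The question here was whether the promoter or the brain region mattered for presentation genes. The shares of all genes given below are at adjusted p under 0.05. The share of all genes at an unadjusted p under 0.05 was not counted, so counts at that threshold have no background beside them. In cortex, no gene of the 40 was called between SYN1 and GFAP tumors, where 0.176% of all genes were called in either direction; at an unadjusted p under 0.05 limma gave 1 gene, Erap1. The largest difference was 0.61 log2 for H2-Aa, with a 95% interval from -0.35 to 1.57, and for Cd74 the interval ran from -0.85 to 1.48. Both intervals include differences of over 2-fold.

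Between NES and GFAP hippocampus tumors 1 gene was called, H2-Oa (0.39 ± 0.12, SE, adjusted p = 0.0405 by limma), where 8.21% of all genes were called. At an unadjusted p under 0.05, with no share of all genes counted, limma gave 10 of the 40. NES tumors measured 6.93, 7.05, 7.04 and 6.87 log2 for H2-Oa and GFAP tumors 6.33 to 6.96 (median 6.50), which overlap. The call was lost when GFAP hippocampus tumor 1 or 7, or NES tumor 2, 3 or 4, was left out. The class II differences were larger but uncalled: 1.30 for Cd74 (95% interval 0.27 to 2.33), 1.27 for H2-Aa (0.42 to 2.12), 0.88 for H2-Eb1 (0.14 to 1.62) and 0.81 for H2-Ab1 (0.10 to 1.53), with limma adjusted p of 0.0548 or more. Without the 4 arrays that stood apart they were 0.37, 0.79, 0.50 and 0.51.

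Between GFAP tumors of hippocampus and cortex no gene of the 40 was called, against 2.68% of all genes, and 1 had an unadjusted p under 0.05 by limma. That gene was B2m, at 0.72 ± 0.20 log2 (SE; adjusted p = 0.0547 by limma). The interaction test, which compares the rise in GFAP tumors over normal tissue between hippocampus and cortex, called none of the 40 genes by limma, against 0.838% of all genes, with B2m again the 1 gene under 0.05 unadjusted (0.70, 95% interval 0.07 to 1.33). Between normal hippocampus and normal cortex limma called none of the 40, and 0 had an unadjusted p under 0.05, against 1.29% of all genes called.

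Against GFAP hippocampus tumors 3 genes were called higher in SVZ tumors by limma, where 0.316% of all genes were called in either direction. They were H2-Aa (2.01 ± 0.46 log2, SE, adjusted p = 0.0496), H2-M1 (1.27 ± 0.26, adjusted p = 0.0307) and H2-M9 (1.57 ± 0.29, adjusted p = 0.0206). At an unadjusted p under 0.05, with no share of all genes counted, limma gave 18 of the 40. H2-Oa was not called (0.40), nor were Cd74 (2.25, 95% interval 1.11 to 3.38), H2-Ab1 (1.46) and H2-Eb1 (1.56). The calls rested on few arrays: none remained without SVZ tumor 2 or with GFAP hippocampus tumors 1 to 4 only, 1 without GFAP hippocampus tumor 7, and 6 genes were called without GFAP hippocampus tumor 4. The share of all genes called in these refits was not counted. H2-M9 was the 1 gene called without the 4 arrays that stood apart (1.34, adjusted p = 0.0440 by limma), in a fit that called 0.672% of all genes. There H2-Aa differed by 1.53 (adjusted p = 0.113 by limma).

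Between SVZ and GFAP cortex tumors none of the 40 genes was called, where 0.00502% of all genes were. By limma 13 of the 40 had an unadjusted p under 0.05, with no share of all genes counted at that threshold. H2-Aa was 2.13 log2 higher (95% interval 1.09 to 3.17; adjusted p = 0.132 by limma) and Cd74 2.03 (0.78 to 3.29; 0.303), without overlap of the arrays. GFAP cortex tumor 1 weighed on this: without it 5 genes were called, with no share of all genes counted. Without all 4 arrays that stood apart 6 were called, namely Cd74, H2-Aa, H2-Ab1, H2-Eb1, H2-M1 and H2-M9. These had limma adjusted p from 0.0114 to 0.0235, in a fit that called 11.8% of all genes. There the differences were 2.09 for Cd74, 2.16 for H2-Aa, 1.67 for H2-Ab1, 1.83 for H2-Eb1, 1.23 for H2-M1 and 1.61 for H2-M9, close to those with all arrays.

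**Figure D5:**
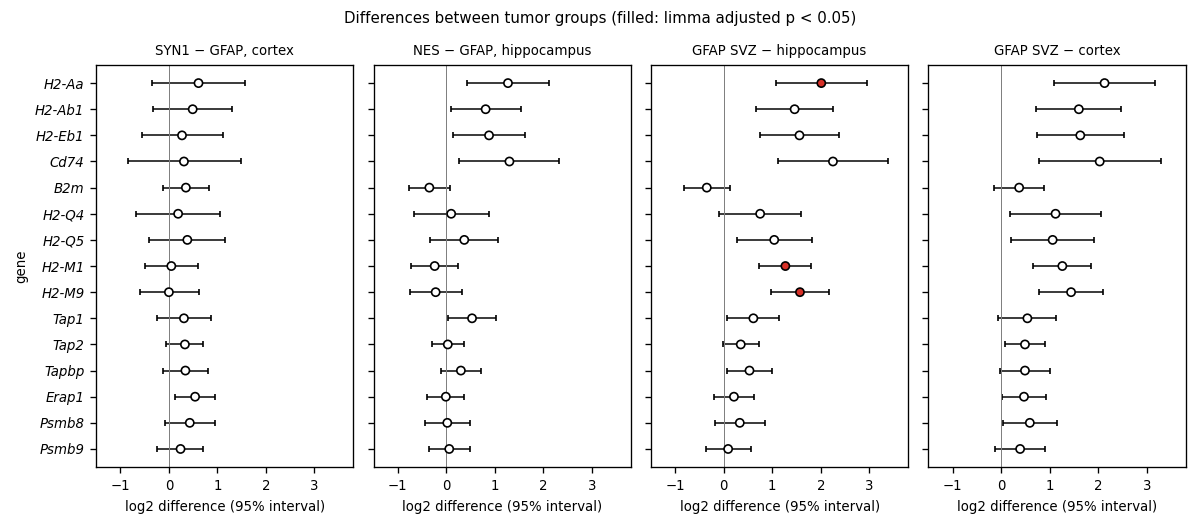
Log2 difference (horizontal axis) with its 95% interval for 15 presentation genes in 4 comparisons between tumor groups; filled points had limma adjusted p under 0.05. The 3 filled points are H2-Aa (2.01), H2-M1 (1.27) and H2-M9 (1.57) in SVZ against hippocampus tumors, and the intervals of SYN1 against GFAP cortex tumors include 0 for all genes shown but Erap1.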

How the data were processed

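Trizol RNA was labelled with an Ambion kit for whole transcripts, per the labels, and hybridised to 30 Mouse Gene 1.0 ST arrays of Affymetrix. The authors deposited log2 signals by probe set. Affymetrix Power Tools, MAS5 and RMA appear in the submitters' processing notes with no version or order, and how arrays were normalized to each other is not given in the sources used here. Values ran from 0.133 to 16.1 with array medians from 7.03 to 7.30 and were used as deposited. Log2 signal includes background, so differences of dim genes are compressed. Of 35556 probe sets, 21789 name 1 symbol, 1621 several and 12146 none; 21698 matched RefSeq (GRCm38.p6), whose symbols were used. The probe set with the highest mean over the 30 arrays stood for each of 19938 genes, with no filter on low signal.

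Groups came from the labels. A model with a mean for each of the 7 groups was fitted over the 30 arrays with limma 3.58.1 (R 4.3.3), which pools the spread, and 12 contrasts were tested with Benjamini-Hochberg adjustment over all genes; the fit was tested on simulated data. The number of arrays, 3 to 7 a group, limits the precision. Every gene of the rule could be named, with values by array where a call came with groups that did not overlap and for the 11 genes outside the H2 names; examples from other lists were chosen with their values in view. The genes, lists, contrasts and alternatives were chosen with earlier results of these data known. Summed levels are log2 of the sum of linear signals over a list. Motifs were searched in RefSeq promoter windows on both strands. Replicate numbers were checked for pairing: correlations of equal-numbered arrays ran from -0.394 to 0.565, and only between GFAP hippocampus and GFAP cortex tumors were all 4 above 0.1 (0.277 to 0.306), a pairing that comes from the data and not from the labels.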

Additional observations from a re-analysis of the deposited data

Results flagged for a closer look

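Among 24 genes in the 6 groups of 4 to 7 arrays, 144 sets of values were examined for 1 array far from the rest of its group, and 6 were found; chance gives about 1 in 20. Psmb9 in GFAP hippocampus tumor 6 was at 9.29 log2, where the other 6 tumors were at 8.30 to 8.52. The other 5 were in normal tissue. H2-Q4 was at 6.38 in normal cortex 2 (others 5.88 to 5.94) and Psmb8 at 6.58 in normal cortex 3 (others 6.41 to 6.42), both high. Erap1 was at 6.53 in normal cortex 4 (others 6.74 to 6.78), H2-Bl at 5.87 in normal hippocampus 1 (others 6.15 to 6.16) and H2-T24 at 6.64 in the same array (others 6.87 to 6.88), all low. The interaction of tumor and region called none of the 40 genes.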

How the results depend on the processing

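The 11 settings and each array left out in turn kept the counts of called genes within 1.5 times in the 5 comparisons with normal, except 21 (18 higher, 3 lower) in GFAP cortex tumors with array weights. No called difference reversed. Comparisons between tumor groups were less steady. NES against GFAP hippocampus tumors (1 gene) gave 0 with arrays centred on their medians, quantile normalization, only the arrays compared or adjusted p under 0.01, and 2 without the 30% of genes with the lowest mean, with array weights, without the 4 arrays that stood apart or with GFAP hippocampus tumors 1 to 4 only; leaving out single arrays gave 0 to 4. GFAP hippocampus against cortex tumors (0) gave 1 with centring and with tumors 1 to 4 only, and 0 to 1 with single arrays left out. SVZ against GFAP cortex tumors (0) gave 6 with array weights and without the 4 arrays, 3 with tumors 1 to 4 only, and 0 to 5. SVZ against GFAP hippocampus tumors (3) gave 5 with array weights, 1 without the 4 arrays, 0 with only the arrays compared, adjusted p under 0.01 or tumors 1 to 4 only, and 0 to 6. Normal hippocampus against cortex (0) gave 2 with only the arrays compared and with array weights. SYN1 against GFAP cortex tumors and the interaction gave 0 in every setting. The cause of these shifts was not tested. Centring moved the median of all genes by -0.12 in NES against GFAP hippocampus tumors and by 0.12 in GFAP hippocampus against cortex tumors and in the interaction.

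With the replicate number as a block (replicate block), in which GFAP hippocampus tumors 5 to 7 carry no weight since each number occurs once, the counts were 0 for GFAP hippocampus against cortex tumors, 2 for NES against GFAP hippocampus tumors, 4 for SVZ against GFAP cortex and 0 for SVZ against GFAP hippocampus tumors, and no other count moved by over 1.5 times. Over the 40 genes and 12 comparisons, 4913 of 5076 values kept their side of the threshold across settings, 55 lost a call and 108 gained one, and 267 values uncalled in both fits changed sign. With single arrays left out 14270 of 14400 kept their side, 83 lost a call, 47 gained one, and 339 uncalled values changed sign. Probes near background limit what small differences show.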
